A study of Mus musculus with 11 samples.

Results

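Of 20993 Rbpj peaks in a mouse T-cell leukaemia line, 1019 lay outside every histone segment of the same cells (4.85%, exact 95% interval 4.57 to 5.15). They are called unmarked peaks here. They were chosen by position: no base of the peak was shared with any enriched segment of the H3K4me1, H3K4me3, H3K27me3 or H3K27ac library. The choice therefore rests on measured data, and neither the count nor the distances to segments that follow from it are tests. All shares below come from 1 library per target and line, so no value has a replicate and no p-value across peaks is given. The intervals are exact (Clopper-Pearson) and cover counting error only.

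Rbpj (also called CSL) is the DNA-binding protein of the Notch pathway. When Notch1 is cleaved, its intracellular part, ICN1, joins Rbpj and a Mastermind coactivator on DNA and transcription of nearby genes rises, while in the absence of ICN1 Rbpj can hold corepressors instead. H3K4me1 is typical of enhancers, H3K4me3 of promoters, H3K27ac of active elements of either kind and H3K27me3 of Polycomb-repressed chromatin. Zmiz1 is a PIAS-like coactivator. In T-cell leukaemia, activated Notch1 is a frequent driver.

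The cells were 8946, a mouse T lymphoblastic leukaemia line, infected with retroviruses that carry a tagged Zmiz1 and an activated Notch1, and sorted for both marker proteins. All samples thus carry an added Zmiz1 and an added Notch1, and none is an unmodified control. One line, Flag-Zmiz1/L1601PDP, gave the Rbpj, Flag-Zmiz1, ICN1, histone and input libraries, and a second, HA-Zmiz1/DEGFDLNRDP, gave HA-Zmiz1, ICN1 and its own input; they are called the Flag line and the HA line. Factor chromatin was fixed with DSG and formaldehyde, and histone chromatin with formaldehyde alone, so an unmarked peak also compares chromatin fixed in different ways. The Rbpj library held 19048270 filtered tags against 36404168 in the Flag-line input, and the other factor libraries 13450671 to 15429394. The 2 H3K27 libraries have labels that disagree with the names of their deposits, and are called here by their labels. Because a peak counts as unmarked only when it misses all 4 libraries, the choice does not depend on which is which. By H3K4me3 segments over a gene end the cells matched their T-cell label: 12 of 12 T-cell markers had one, 0 of 6 B-cell markers and 1 of 6 myeloid markers (Itgam).

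Sequence could be read for the unmarked peaks whose summit fell in a RefSeq promoter window, which runs from 250 bases before to 50 after a start site in GRCm38.p6. There were 16 such peaks, 8 at coding and 8 at noncoding genes. The following stretches, on the gene's strand and upstream of the start site, are up to 40 bases either side of the summit. The Kcnh6 site is shown as the strongest unmarked peak. The other 7 are shown for a letter pattern that recurs in them, in capitals where present: CCANNAG followed directly by NNGGC, on either strand, which resembles the site of the insulator protein CTCF. They were chosen after their sequences were seen.
Kcnh6 chr11:106007982-106008062 (+ strand): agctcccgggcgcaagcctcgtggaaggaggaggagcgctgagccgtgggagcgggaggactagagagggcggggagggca
Gm36358 chr1:65112190-65112270 (+ strand): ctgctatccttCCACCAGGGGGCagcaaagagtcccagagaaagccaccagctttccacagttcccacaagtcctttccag
Gm41429 chr16:18696552-18696632 (+ strand): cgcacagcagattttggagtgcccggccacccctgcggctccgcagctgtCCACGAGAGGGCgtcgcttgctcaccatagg
C1rb chr6:124570199-124570279 (+ strand): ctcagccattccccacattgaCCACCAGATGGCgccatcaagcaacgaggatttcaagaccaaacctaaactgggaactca
Gm30284 chr17:86445051-86445131 (- strand): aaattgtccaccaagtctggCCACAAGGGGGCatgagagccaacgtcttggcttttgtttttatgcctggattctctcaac
Rgs9 chr11:109298203-109298283 (- strand): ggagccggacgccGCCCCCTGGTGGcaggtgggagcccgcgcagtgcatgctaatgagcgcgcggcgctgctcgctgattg
Pdzd9 chr7:120670322-120670402 (- strand): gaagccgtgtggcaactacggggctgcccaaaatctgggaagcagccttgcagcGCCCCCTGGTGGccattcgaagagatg
Gm12273 chr11:61950762-61950842 (+ strand): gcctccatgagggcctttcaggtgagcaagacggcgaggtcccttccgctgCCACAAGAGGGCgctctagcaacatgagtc

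The Rbpj folds at the coding genes were 5.86 for C1rb, a complement protease gene, 5.38 for Rgs9, a regulator of G-protein signalling, and 3.87 for Pdzd9. At the noncoding genes they were 8.31 for Gm36358, 6.68 for Gm41429, 4.85 for Gm30284 and 4.40 for Gm12273. The nearest segment was 97 bp away at Rgs9 and 7157 bp away at Gm41429, the lowest and the highest of the 7. The pattern stood in 8 of the 16 windows (50%, interval 24.7 to 75.3), against 211 of 5487 windows at Rbpj peaks inside a segment (3.85%) and 2.43% of all 32851 windows. In 7 of the 8 its centre lay within 30 bases of the Rbpj summit, which is the reason these 7 are printed. Counting only bases under the peak gave 7 of 16 (43.8%) against 137 of 5487 (2.50%). The pattern was picked by reading these same sequences, so its count is a description of these 16 sites and is not independent of them. The other 4 patterns tried after the genes or sequences were seen were pieces of the site of the repressor REST. CAGCACC stood in 3 of 16 windows (7.14% of all windows) and GGACAG in 5 (22.2%). The longer TCAGCACC stood in 2 (1.65%), and the REST-like joined site in 0 (0.0365%). No CTCF library was analysed here, and a letter match is not a bound site.

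The 10 further motifs were counted over whole windows of 300 bases, and their place relative to the peak was not examined. Of these, TGGGAA, the core of the Rbpj site, was in 10 of 16 windows (62.5%, interval 35.4 to 84.8), against 23.5% at Rbpj peaks inside a segment and 25.6% of all windows. The longer GTGGGAA, which contains it, was in 4 of 16 (25%), against 6.67% and 6.38%. CGGAAG, the core of the Ets site, was in 2 of 16 (12.5%), against 39.8% of windows at marked peaks and 16.9% of all. AGGGGGC, which can overlap the CTCF-like pattern, was in 5 of 16 (31.3%), against 19.2% and 10.6%. TGACGTCA, the CRE site, and the NRF1 site were in 0 of 16, with 1.79% and 0.971% of all windows. The remaining 4 motifs were TGTGGT (3 of 16; all windows 16.8%), CCCTC (13; 66.0%), CANNTG (13; 72.3%) and TGANTCA (2; 7.81%), all read on both strands. The unmarked windows had a median GC content of 53.0% and a ratio of observed to expected CpG of 0.450. Those at marked peaks stood at 63.0% and 0.834, and all promoter windows at 52.7% and 0.384. With 16 windows, the intervals are wide, and these promoter sites are a small share of the 1019 peaks.

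The unmarked peaks were mostly near a segment without touching one. Their median distance to the nearest segment was 5.07 kb (quartiles 2.00 to 12.3), and 134 lay within 1 kb, 506 within 5 kb and 711 within 10 kb. At the far end, 50 lay beyond 50 kb and 24 beyond 100 kb. The nearest segment belonged to the H3K4me1 library for 481 peaks, to the library labelled H3K27ac for 339, to that labelled H3K27me3 for 138 and to H3K4me3 for 61. Of the marked Rbpj peaks, 985 met 1 library, 8508 met 2, 10262 met 3 and 219 met 4. The count depended on the segments used: without the H3K4me1 library 1561 peaks were unmarked, and with only the upper 50% of each segment list by fold 1952 were.

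**Figure D1:**
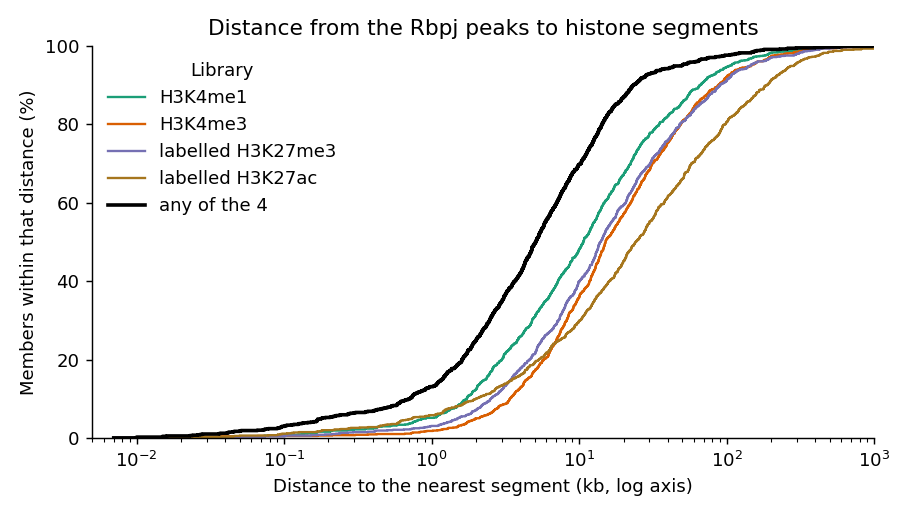
Cumulative share (%) of the 1019 unmarked Rbpj peaks against the distance to the nearest segment (kb, log axis), for each histone library and for any of the 4 (black). The black curve passes 5.07 kb at its median, and H3K4me1 is the nearest of the single libraries over most of the range.

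The peaks nearest the rule's limit were separated from a segment by a few bases. A peak 2.26 kb from Armh1 lay 7 bp from a segment labelled H3K27me3, with an Rbpj fold of 5.45. Peaks in Atp6v0c, a proton pump subunit, and in Draxin, an axon guidance factor, each lay 10 bp away, with folds of 9.11 and 5.86. Peaks in Nynrin and Otud4 lay 15 bp away, with folds of 3.89 and 6.55. Just on the other side, a peak near Olfr1324 shared 1 bp of its 77 with a segment and had a fold of 8.50. Those near Tcea2, Kcnh2, Ndufa6 and Chic2 shared 5, 4, 3 and 6 bp, with folds of 10.5, 5.72, 6.68 and 4.67. The folds on the 2 sides of the limit overlap.

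The 5 farthest unmarked peaks stood in regions with no segment for 397 kb or more. One lay 8.37 kb from Mkrn3, an imprinted gene that restrains puberty, and 977 kb from the nearest segment, with an Rbpj fold of 4.86. The others were 606 kb from a segment near Tcerg1l (fold 6.68), 579 kb near Caln1 (6.62), 450 kb near Dcc, the netrin receptor (4.86), and 397 kb near Minar2 (6.97). All 5 folds lie between 4.86 and 6.97, around the median of the unmarked peaks. At the Mkrn3, Tcerg1l and Dcc peaks local input, described below, was at its lowest value, 1.01 times the library mean. Their summit pileups were 7, 10 and 7. Caln1 and Minar2 stood at 2.45 and 1.35 times the mean, with pileups of 16 and 12.

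Rbpj was a little weaker at the unmarked peaks, with broad overlap. The fold over local input is the authors' value for a peak, and folds were compared only within 1 factor list. Its median was 6.07 at unmarked peaks (quartiles 5.06 to 7.29, range 3.0 to 35.1) and 6.48 at marked ones. The summit pileup had a median of 12 against 15, the −log10 p 9.82 against 11.1 and the width 86 against 132 bp. Local input, recovered from the pileup and the fold, was also lower at the unmarked peaks. Its median was 1.63 times the library mean against 1.97, and 256 unmarked peaks (25.1%) were below 1.1 times the mean, against 7.49% of all Rbpj peaks. The lowest value was 1.01 in both groups, and the 10th percentile of the unmarked peaks equalled it. Values below 1.1 thus sit near a floor of this measure and are not measured input levels. The part of input depth in these differences was not tested.

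Ordered by fold and cut into 10 bins, the share of Rbpj peaks that were unmarked lay between 4.17% and 6.48% in the lower 8 bins. It was 2.58% in the ninth and 1.95% in the tenth, where 41 of 2100 peaks were unmarked (interval 1.40 to 2.64). Strong unmarked peaks were thus fewer in proportion, but present. Requiring a p of 1e-10 or less left 423 unmarked peaks of 11871, or 3.56%.

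**Figure D2:**
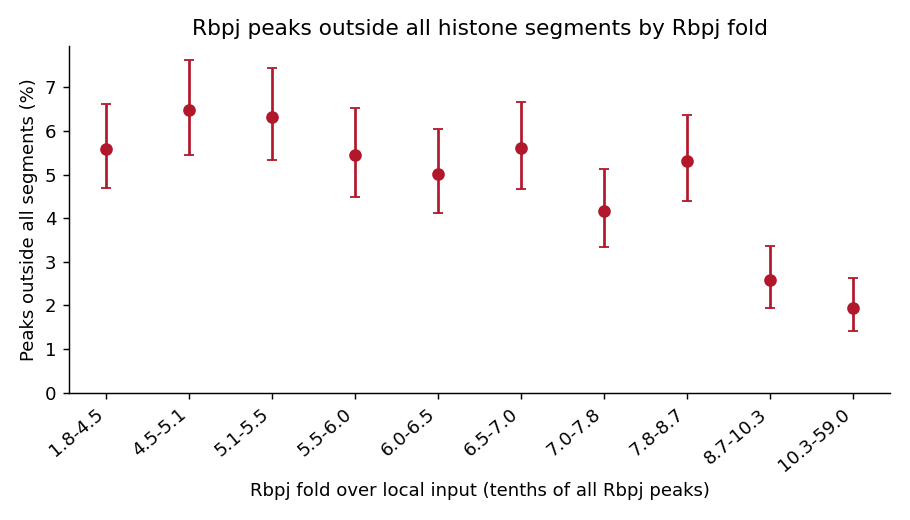
Share of Rbpj peaks outside all histone segments (%, with exact 95% intervals) in 10 bins of Rbpj fold over local input, from the lowest to the highest. The 2 highest bins sit at 2.58% and 1.95%, below the other 8.

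The strongest unmarked peak lay at Kcnh6, a voltage-gated potassium channel gene, at chr11:106007944-106008111. It had an Rbpj fold of 35.1, a −log10 p of 93.1 and a pileup of 61, over an input of 1.19 times the mean. Its summit was 126 bases before the start site, in the sequence printed above, and 90 bp from a segment of the library labelled H3K27ac. No other factor list had a peak there. The next was inside Nav1, a microtubule-associated gene of neurons, at chr1:135670540-135670680 (fold 28.2), 9.32 kb from a segment. A peak inside Nek9, a mitotic kinase, had a fold of 23.9, and one 15.3 kb from Ccdc130 a fold of 21.9. The Dand5 peak, in the gene of a secreted Nodal antagonist at chr8:84823743-84823933, had a fold of 20.5 and an ICN1 peak of the HA line with a fold of 9.48. A peak inside Fstl4 stood 43.3 kb from any segment with a fold of 18.3. By −log10 p, the measure that ranks the 15 strongest, Kcnh6 (93.1), Nav1 (68.0) and Nek9 (62.3) came first.

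The rest of the 15 strongest ran from folds of 10.6 to 19.5. They lay near Sftpb, a lung surfactant protein gene (19.5), in Cnih2, an auxiliary subunit of AMPA receptors (19.0), in Fam222a (17.6), in Swi5, a recombination repair gene (15.3), near H2-T-ps (15.2), near Cript (14.8), in Dbndd2 (13.7), 98.4 kb from Pmfbp1 (13.6) and in Shd, an adaptor gene (10.6). Of the 15, 10 lay inside a coding gene span, 2 within 1 kb of a start site, and 7 had a nearest coding gene with H3K4me3 over an end. HA-Zmiz1 was found at 2 of them, Cript and Shd, HA-line ICN1 at 2, Dand5 and H2-T-ps, and Flag-Zmiz1 at 0.

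Unmarked peaks were seldom at gene ends. Within 1 kb of either end of a coding gene lay 82 of them (8.05%, interval 6.45 to 9.89), against 45.0% of all Rbpj peaks. Within 1 kb of a RefSeq start site, on chromosomes where the start-site table has entries, were 49 of 985 (4.97%), against 43.9% of all. Since the rule drops every peak in an H3K4me3 segment, which sit at starts, these shares are not independent of it: without the H3K4me3 library the share at gene ends was 13.1%. The wider surroundings differed less. Within 5 kb were 32.5% of unmarked peaks (all Rbpj peaks 59.7%), within 50 kb 86.2% (88.4%), and inside a coding gene span 504, or 49.5% (66.2%). The median distance to a gene end was 9.62 kb, against 1.78 kb for all Rbpj peaks. Exon and intron positions were not used here.

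The unmarked peaks also had few close Rbpj neighbours, which the rule itself favours. Most Rbpj peaks, 19974 of 20993, lay in a segment, and 885 unmarked peaks lay more than 1 kb from every segment. The shares with a neighbour are thus not independent of the rule. Another Rbpj peak lay within 1 kb of 7 of them (0.687%, interval 0.277 to 1.41), against 36.4% of all Rbpj peaks, and within 10 kb of 25.9%, against 61.2%. Joined over 5 kb they formed 1003 places, of which 987 held 1 unmarked peak, 16 held 2 and 0 held 3 or more. Their share of the Rbpj peaks per chromosome ran from 3.26% on chromosome 16 to 6.19% on chromosome 18 among the autosomes.

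HA-Zmiz1 was rare at the unmarked peaks. It overlapped 14 of 1019 (1.37%, interval 0.753 to 2.29), against 3540 of 19974 marked peaks (17.7%) and 16.9% of all Rbpj peaks. The 14 include a pair near Arl4d that share 1 HA-Zmiz1 peak, so they stand for 13 HA-Zmiz1 peaks. The gap held across strength: in 4 bins of Rbpj fold from weakest to strongest, 0.627%, 0.346%, 2.61% and 2.80% of unmarked peaks had HA-Zmiz1, against 14.2%, 13.2%, 17.1% and 26.2% of marked ones. Seen from Zmiz1, 67 of 4984 HA-Zmiz1 peaks (1.34%) lay outside all segments, and 13 of these (19.4%, interval 10.8 to 30.9) met Rbpj, against 72.1% of those in a segment. The HA line has its own input, and its chromatin marks were not analysed here. The share was 3.14% when the H3K4me1 library was left out of the rule and 2.24% without the library labelled H3K27ac.

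Where HA-Zmiz1 and unmarked Rbpj met, the highest HA-Zmiz1 fold was 13.9, in Tex14, a gene of germ-cell bridges, at chr11:87462506-87462633 (Rbpj fold 12.2). That site is 3 bp from Rnu3b4, which RefSeq classes as a small nuclear RNA gene, and 168 bp from a segment. The peak inside Naxd, a metabolite repair enzyme gene, at chr8:11503623-11503710, was the only unmarked site with HA-Zmiz1 (11.2) and HA-line ICN1 (22.5) together, and its Rbpj fold was 7.29. The Arl4d pair, 6.88 and 6.55 kb from that small GTPase gene, had Rbpj folds of 8.08 and 4.72 at an HA-Zmiz1 fold of 9.25, and the first is 1 bp from the U2 gene Rnu2-10. Sites near Fem1a (HA-Zmiz1 8.55, Rbpj 6.97) and in Erich1 (7.23 and 8.17) were the 2 that also had Flag-Zmiz1. The others of the 10 highest were near Cript (6.37), Grhpr (6.18), 2300002M23Rik (5.44) and Rps6kc1 (5.13). The median HA-Zmiz1 fold over the 14 was 6.28, within the quartiles of 5.60 and 8.47 for the marked Rbpj peaks that had one.

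ICN1 was rare at all Rbpj peaks, and in the HA line rarer at the unmarked ones. In the HA line it overlapped 3 unmarked peaks (0.294%, interval 0.0608 to 0.858), those of Naxd, Dand5 and H2-T-ps, an MHC class I pseudogene whose site had an ICN1 fold of 6.99. The share was 1.92% of marked peaks and 1.84% of all Rbpj peaks. Without the library labelled H3K27ac it was 1.04% over 1251 peaks, and without H3K4me1 0.448%. In 4 bins of Rbpj fold from weakest to strongest, 0%, 0%, 0.373% and 1.40% of unmarked peaks had HA-line ICN1. Marked peaks stood at 0.690%, 0.233%, 0.889% and 5.86%. The intervals overlap in all but the strongest bin, where the unmarked share rests on 2 peaks. In the Flag line, where Rbpj itself was profiled, ICN1 overlapped 0 of 1019, which allows a share of up to 0.294% by a floor of 3 counts (the exact interval ends at 0.361%), against 0.290% of marked peaks and 0.276% of all. A difference in Flag-line ICN1 was not detectable at this depth. Only 2 unmarked peaks lay at 10 or more times the mean input (0.229% of all Rbpj peaks did), a limit chosen after the data were seen. Among the rest, 3 had HA-line ICN1 (all low-input Rbpj peaks 1.72%) and 0 had Flag-line ICN1 (0.11%). Of all factor lists together, 49 of the 1019 unmarked peaks had any, 35 of them Flag-Zmiz1, and 970 had none. The same count over all Rbpj peaks is not given here, so the 49 cannot be called low or high.

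Flag-Zmiz1 was the exception. It overlapped 35 of 1019 unmarked peaks (3.43%, interval 2.40 to 4.74), against 47 of 19974 marked peaks (0.235%) and 0.391% of all Rbpj peaks. Most of the marked overlaps were at places of very high input: their median input was 52.2 times the library mean, against 2.45 times at the 35. Among peaks under 10 times the mean the shares were 35 of 1017 (3.44%) and 16 of 19928 (0.0803%), with 0.243% of all such Rbpj peaks. In 4 bins of Rbpj fold from weakest to strongest, 3.76%, 2.08%, 4.48% and 3.50% of unmarked peaks had Flag-Zmiz1. Marked peaks, at any input, stood at 0.690%, 0.0849%, 0.0593% and 0.0803%, and the weakest bin held 36 of the 47 marked overlaps. Without the H3K4me1 library in the rule the same number, 35, was 2.24% of 1561.

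That count has to be read against where Flag-Zmiz1 peaks lie. Of 581 Flag-Zmiz1 peaks, 404 (69.5%) were outside all segments. Rbpj met 35 of those 404 (8.66%, interval 6.11 to 11.8), and 16 of the 135 low-input Flag-Zmiz1 peaks in a segment (11.9%, interval 6.93 to 18.5), and these intervals overlap. The Flag-Zmiz1 list, the Rbpj list and the histone segments come from the same line and share an input, and the part of that input in the overlap was not tested. The HA-tagged and Flag-tagged lists met at 2 of the 1019 unmarked Rbpj peaks, Fem1a and Erich1. Among marked Rbpj peaks 0 had HA-Zmiz1 together with low-input Flag-Zmiz1. Counts this small are given as a description only.

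**Figure D3:**
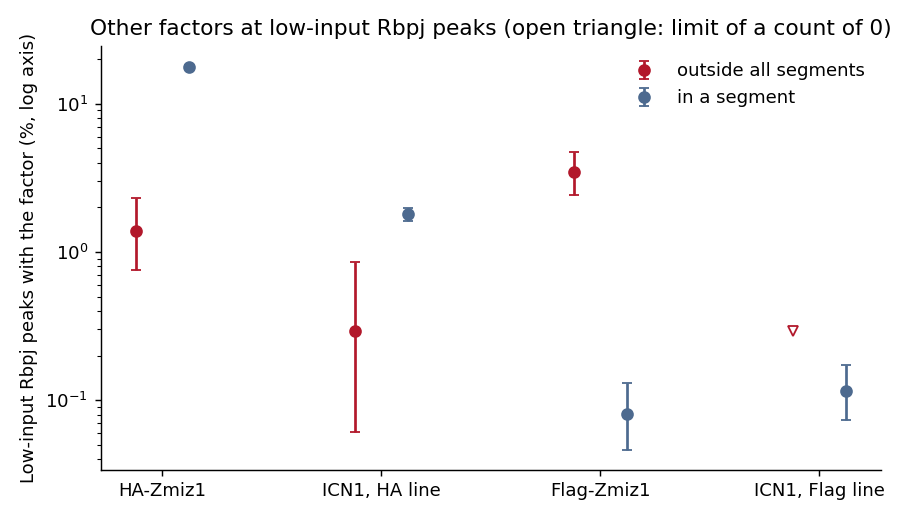
Share of low-input Rbpj peaks (%, log axis, exact 95% intervals) that overlap a peak of each other factor list, for peaks outside all segments (red) and in a segment (blue). HA-Zmiz1 is lower outside (1.38% of low-input peaks), Flag-Zmiz1 higher (3.44%), and the open triangle is the 0.295% that a floor of 3 counts gives for a count of 0.

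The Flag-Zmiz1 sites spanned a range of Rbpj folds. For each site below the Flag-Zmiz1 fold is given first and the Rbpj fold second; the 2 come from libraries of different depth and are not compared with each other. The 10 sites named are those with the highest Flag-Zmiz1 −log10 p, which is not the order of the folds. The strongest was inside Garnl3 at chr2:33018252-33018332, with a Flag-Zmiz1 fold of 24.4 and an Rbpj fold of 5.38. A site 4.65 kb from Epha8, an ephrin receptor gene, had 22.2 and 5.82. In Phf21b, a PHD-finger gene, the values were 15.8 and 8.46, and 12.1 kb from Igsf21, a synaptic adhesion gene, 15.5 and 9.72. L1cam, a neural adhesion gene, had 14.6 and 5.38, and Xkr6 14.5 and 7.78. Cacng2, an AMPA receptor subunit gene also called stargazin, had 14.4 and 4.82, at a site 49.9 kb from any segment. Erich1 (14.1 and 8.17), Kcnk9, a potassium leak channel gene (11.8 and 4.81), and Lypd5 (10.4 and 4.20) complete the 10. Over the 35, the Rbpj fold ran from 3.88 to 11.5 with a median of 6.20, and the Flag-Zmiz1 fold from 4.08 to 24.4 with a median of 9.78. At the 16 low-input marked sites the medians were 6.23 and 6.60, and the ranges overlap.

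**Figure D4:**
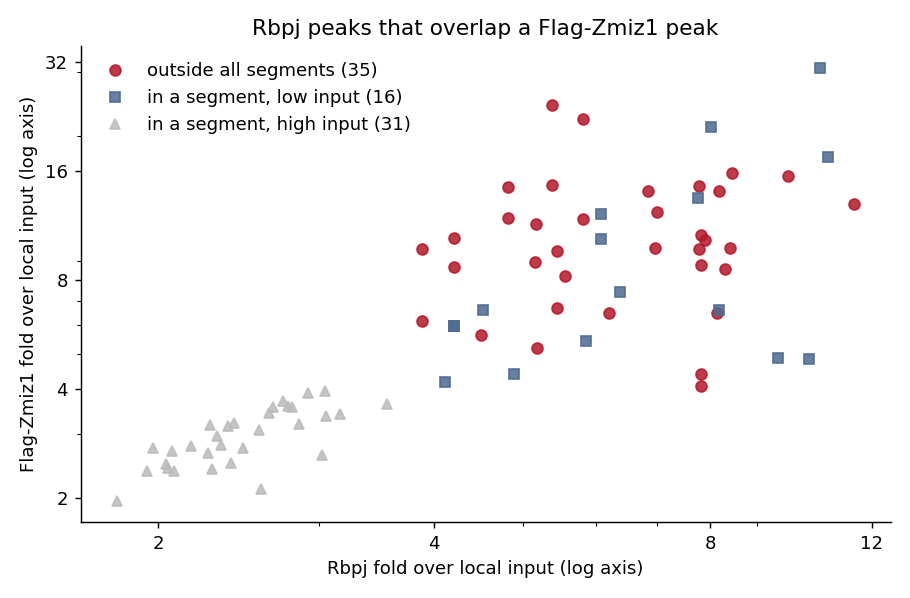
Flag-Zmiz1 fold against Rbpj fold over local input (both log axes) for the 82 Rbpj peaks that overlap a Flag-Zmiz1 peak, split into 35 outside all segments, 16 in a segment at low input and 31 in a segment at high input. The high-input sites sit at low folds. Fold is taken over local input, so their place is not independent of the split by input. The other 2 sets overlap.

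The genes beside unmarked peaks less often had an H3K4me3 segment. The nearest coding gene had an H3K4me3 segment over an end for 580 unmarked peaks (56.9%, interval 53.8 to 60), against 80.5% of all Rbpj peaks. The share for H3K4me1 was 28.4% against 43.3%, and for the library labelled H3K27me3 52.5% against 78.1%. The library labelled H3K27ac went the other way, at 279 peaks (27.4%, interval 24.7 to 30.2) against 14.1%. Which of the 2 H3K27 marks each library holds is uncertain, since labels and deposit names disagree, so neither share can be read as acetylation or as Polycomb methylation. Over all Rbpj peaks the library labelled H3K27me3 was close to H3K4me3 at these gene ends, and the one labelled H3K27ac was not. Marked peaks at a gene end can be in the very segment counted, so these shares are not independent of the rule. Among the unmarked peaks alone, the 35 with Flag-Zmiz1 had a nearest gene with a segment labelled H3K27ac in 16 cases (45.7%, interval 28.8 to 63.4) and with H3K4me3 in 14 (40%, 23.9 to 57.9). The 984 without it stood at 26.7% (24 to 29.6) and 57.5% (54.4 to 60.6). Their median distances to a segment were 9.59 kb and 4.96 kb.

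**Figure D5:**
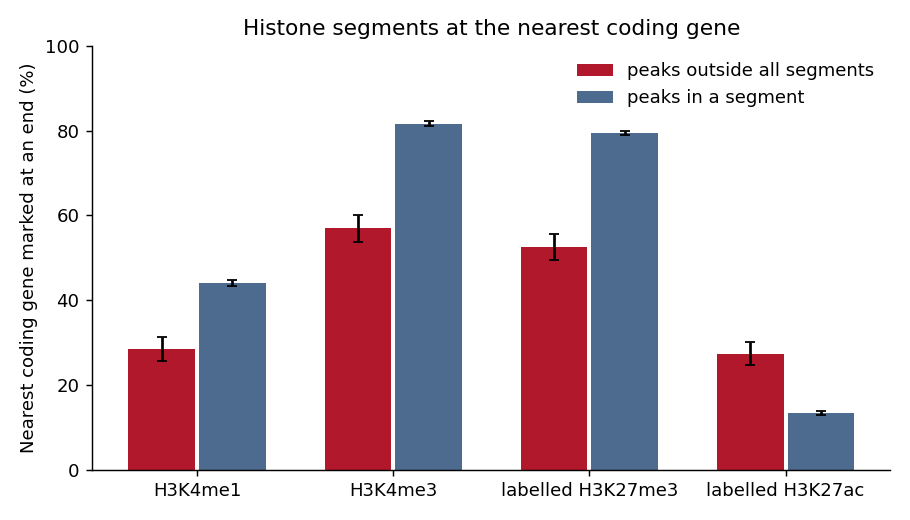
Share of Rbpj peaks (%, bars from 0, with exact 95% intervals) whose nearest coding gene has a segment of each histone library over an end, for unmarked (red) and marked (blue) peaks. Unmarked peaks are lower in 3 libraries and higher, at 27.4%, in the one labelled H3K27ac.

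Of 21900 coding genes 11.7% had an unmarked Rbpj peak within 50 kb. Among the listed Notch targets it was 2 of 26: Bcl2, the survival gene (Rbpj fold 5.06, 26.4 kb away), and Dtx1, a Notch regulator (5.38, 2.37 kb). Rasal1 lay nearer to the Dtx1 peak than Dtx1 did. Of 19 genes of the Notch complex and the Zmiz and Pias family, 6 had one. The peak beside Zmiz1 lay 0.078 kb from the gene (fold 6.68) and 14.1 kb from a segment. One lay inside Fbxw7, the gene of the ligase subunit that turns over ICN1 (fold 6.35). Farther away were peaks 23.9 kb from Kdm1a, a histone demethylase gene (8.50), 38.8 kb from Maml3, a Mastermind coactivator gene (6.93), and 22.8 kb from Numb, a Notch inhibitor gene (5.50), each with another coding gene nearer. Of 34 T-cell genes 2 had one, Lck (7.00) and Lat (5.45), again with another gene nearer. Of 15 B-cell and myeloid genes 4 had one, among them Spi1, with the peak inside the gene (6.78). Cd79b (7.29, 15.3 kb away) and Cd68 (5.82, 35.7 kb) were others, with another coding gene nearer. Of 20 housekeeping genes 7 had one, among them Ywhaz (8.81) and Gapdh (5.50), and of 30 developmental regulators 1, Lhx2, whose peak (5.45) also had Flag-Zmiz1 (9.61). These lists are short, and any Rbpj peak was within 50 kb of 67.2% of coding genes, so the counts are given as they are. Of the 20 listed neuronal adhesion and synapse genes 0 had an unmarked peak, and 8 (40%) had any Rbpj peak. That 0 covers only the listed genes: L1cam, Igsf21 and Cacng2, named above with unmarked peaks, are not among them.

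Within 200 bp of a RefSeq small nuclear RNA gene lay 6 unmarked peaks (0.589%), against 0.143% of all Rbpj peaks. They were at Rnu3b4, Rnu2-10, Gm24950, Gm24204, Gm23287 and Rn7sk, named after their values were seen. All 6 were close to a segment, from 0.007 to 0.72 kb, and the first 2 are the HA-Zmiz1 sites at Tex14 and Arl4d. Genes of this kind have near-identical copies, and the deposits are named as uniquely mapped, so peaks there are uncertain. Transfer RNA genes had 0 unmarked peaks within 200 bp, with 0.291% of all Rbpj peaks near one, and microRNA genes 1, at Mir200b (0.272% of all). Genes that RefSeq classes as small nucleolar RNA had 0 (0.0524% of all). These classes, that of Rnu3b4 included, are the RefSeq ones and were not checked further.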

How the data were processed

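ChIP-seq reads were aligned to mm10, and the submitters' processing notes name Bowtie 0.12.7, MACS2 2.0.10, SICER 1.1 and HOMER 4.2. Per the file headers, peaks were called with MACS 2.0.10.20120913 at a p limit of 1e-05, against the input of the same line. The deposited peaks carry a pileup signal, a fold enrichment over local input (a ratio) and a −log10 p. The deposited histone segments carry read counts, a fold ratio and a p-value, with false discovery rates up to 0.001. Segment settings beyond these are not given in the sources used here.

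Overlap means at least 1 shared bp. Local input was recovered as (pileup + 1) / fold − 1. Gene spans and promoter windows came from RefSeq tables of GRCm38.p6, the same build as mm10. Analysis used Python 3.11.15, pandas 2.3.3 and scipy 1.17.1, and the interval code was tested on simulated data. Because groups hold 1 library, no test was made. Depth is that of the libraries named in the report, and total reads of the histone samples are not given in the sources used here.

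Sites were named by a rule: the 15 strongest, the 10 highest in HA-Zmiz1, those with ICN1 or up to 10 with Flag-Zmiz1, the 5 nearest to and the 5 farthest from a segment, and up to 20 genes of the lists. The members, lists and rule were chosen with earlier results of these data known. Some items that the rule covers are not reported here.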

Additional observations from a re-analysis of the deposited data

How the results depend on the processing

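No paired analysis was possible because each group held 1 library. Of 77 comparisons with the main values, 64 stayed within the counting interval of the main value, or within 1.5 times the main count, and 13 moved. With the upper 50% of segments by fold, 1952 peaks were unmarked, and 4.56% had HA-Zmiz1 and 1.69% HA-line ICN1. With Rbpj peaks of p 1e-10 or less, 423 were unmarked, 2.84% had HA-Zmiz1, 5.44% had Flag-Zmiz1 and the median fold was 7.66. With a 5 kb window the share at a gene end was 32.5%. Leaving out 1 histone library at a time gave 1082 to 1561 unmarked peaks, 1.63% to 3.14% with HA-Zmiz1, 0.257% to 1.04% with HA-line ICN1, 2.24% to 4.16% with Flag-Zmiz1 and 7.88% to 13.1% at a gene end. Each of these settings changes which peaks are counted or how near a gene end counts. Settings chosen after the data were seen took every promoter window holding a summit (52.6% with the CTCF-like pattern), every window touching a peak (45.5%) or only bases under the peak (43.8%). Depth limits the shares that rest on 3 or fewer peaks.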
